A study of Drosophila melanogaster with 4 samples.

Results

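Regions enriched in trimethylation of histone H3 at lysine 4 (H3K4me3) often lay close behind one another, separated by less than 1000 bases. The regions described here are those under 5000 bases wide whose nearest enriched neighbour on the same sequence was less than 1000 bases away, in the combined list that the authors made for the replicate set. They were taken from 2L with a start of at most 21011544, from 3L with a start of at most 22543557 and from 3R with an end above 2000000. The limits leave out 2000000 bases next to the centromere end of each arm. This rule gave 659 chained regions of the 5539 enriched regions in the combined list. The other 2107 regions under 5000 bases on the same stretches, whose nearest neighbour was farther away, are called unchained and serve as a comparison. The regions were thus chosen by width, gap and position in the combined list, and that list was made from the same samples as the lists of single replicates. Therefore all values below are descriptions and no test was made.

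The mark was mapped by chromatin immunoprecipitation and sequencing (ChIP-seq) in whole wild-type Drosophila melanogaster embryos of the Oregon-R strain (Oregon-R-modENCODE), staged at 14 to 16 h. There are 2 H3K4me3 ChIP samples, both made with lot 2 of the antibody, and 2 Input samples of chromatin that was not immunoprecipitated. All 4 samples share strain, genotype and stage, and 1.8% formaldehyde and a 15 h antibody incubation are recorded for each. The sample labelled Input 2 was the background for ChIP replicate 1 and Input 1 that for ChIP replicate 2. Nothing in the labels says that the replicates were separate embryo collections. Whole embryos hold many cell types, so the lists do not say whether neighbouring regions carried the mark in the same cells. Replicate 1 has 9260 enriched regions with a median score of 0.63, and replicate 2 has 4959 with a median score of 2.21. Neither the read depth nor the scale of the score is given, so scores are compared only as differences and ranks.

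H3K4me3 is set by SET1- and MLL-type methyltransferases in COMPASS complexes, which in Drosophila are built on Set1, Trithorax and Trithorax-related. It is known for marking the nucleosomes just downstream of active transcription starts, while the promoter itself is often poor in nucleosomes. In a compact genome such as that of Drosophila, the starts of neighbouring genes can lie close together. No gene annotation on FlyBase release 5, the build of these coordinates, was used here, so no region is assigned to a gene, exon, intron or promoter.

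Most chains were pairs. A chain is an unbroken run of combined regions with gaps under 1000 bases, and it may include regions of 5000 bases or more. The 659 chained regions lay in 343 chains, of which 281 had 2 regions (81.9%), 54 had 3, 5 had 4, 1 had 5 and 2 had 6. Beside them, 102 broad regions of at least 5000 bases lay in 94 of these chains (27.4%). Chains spanned 2521 to 31222 bases, with a median of 7126 bases. End to end, 279 chains (81.3%) reached 5000 bases and 73 (21.3%) reached 10000 bases. Of the 249 chains without a broad region, 185 (74.3%) reached 5000 bases and 19 (7.63%) reached 10000 bases. Enriched sequence made up a median of 92.7% of the span of a chain. The rule itself holds this share high, since gaps were under 1000 bases and no combined region was narrower than 1001 bases. Across all 343 chains, the regions covered 2505734 bases and the gaps 201903.

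**Figure D1:**
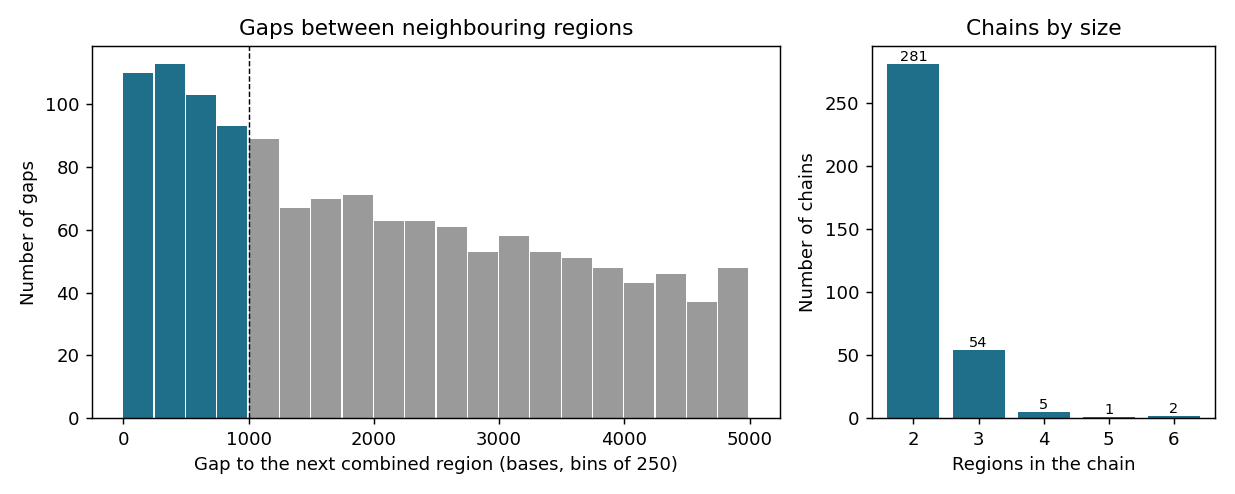
Number of gaps between neighbouring combined regions on the 3 stretches by gap length (bases, bins of 250, gaps under 5000 shown; blue, under the 1000-base limit, which the dashed line marks; grey, above it), and number of chains by how many regions they hold. Gap counts decline from 113 at 250 to 499 bases to 48 at 4750 to 4999 bases, and pairs make up 281 of the 343 chains.

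Gaps were spread over the whole range below 1000 bases. The 418 gaps within the chains had a median of 468.5 bases, with quartiles at 238 and 721 bases. There were 110 gaps under 250 bases, 113 of 250 to 499, 103 of 500 to 749 and 92 of 750 to 999. Just beyond the limit the number per 250 bases went on declining, with 89 gaps of 1000 to 1249 bases and 67 of 1250 to 1499, so the limit of 1000 bases marks no break in the spacing. The lengths just inside it were 998, 995 and 992 bases, and just outside it 1001, 1002 and 1006 bases. The widths just under 5000 were 4985, 4982 and 4971 bases, and the chained regions just above it were 5046, 5058 and 5067 bases wide.

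The shortest gaps were of a few bases. The shortest, 1 base, was on 3L between a region ending at 5916435 and one starting at 5916437, with combined scores of 0.37 and 0.21. The next, 2 bases, was on 3R between 18315407 and 18315410, with scores of 2.55 and 2.44. In replicate 1 these last regions were 282 bases apart, with scores of 1.29 and 1.15. Replicate 2 also had a region for each, with scores of 3.08 and 2.93, and the edge of one reached past the 2-base gap. Gaps of 4, 5 and 7 bases followed on 3L, 3R and 2L. At 2 of the 5 shortest gaps, the same region of replicate 2 had the largest overlap with both sides, and in replicate 1 this was so at 1.

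The longest chain held 6 regions and ran on 3R from 7033798 to 7065019, a span of 31222 bases. Of its regions, 3 were under 5000 bases and 3 were broad. The gaps were 428, 76, 266, 775 and 313 bases long. Combined scores along it were 2.84, 2.99, 2.90, 1.39, 2.00 and 2.35, so its first 3 regions were its strongest. Replicate 1 gave 1.91, 2.18, 2.14, 1.11, 1.11 and 1.38 for them in the same order. Replicate 2 gave 3.26, 3.28, 3.24, 1.69, 2.45 and 2.83. Over these values, each replicate had its 3 highest scores in the first 3 regions and its lowest in the fourth. Every gap of this chain was also a gap in both replicates. Replicate 1 broke the last region into 2, and the value given is that of the larger overlap.

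The other chain of 6 ran on 3R from 5579104 to 5597355 and had all regions under 5000 bases. Its combined scores were 0.44, 1.83, 1.75, 2.67, 2.70 and 0.27, so a weak region closed it at each end. The 4 inner regions were met by both replicates, with scores of 0.92, 0.99, 1.10 and 1.24 in replicate 1 and 2.17, 2.07, 3.20 and 3.15 in replicate 2. The first region was met by replicate 2 only (0.83), and the last by neither.

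A chain of 5 lay on 3L from 9705038 to 9724991, with every region met by both replicates. Its combined scores lay between 2.07 and 2.72, with 0.59 to 1.83 in replicate 1 and 2.57 to 3.42 in replicate 2. The chain of 4 on 3R from 10710093 to 10726044 held one of the highest scores among all chained regions. Its second region, from 10714356 to 10717898, scored 3.36, with 2.32 in replicate 1 and 3.77 in replicate 2, and the next region, 167 bases farther on, scored 1.89. A further chain of 4 on 3L, from 1294968 to 1309216, had scores of 1.55 to 2.78. One on 2L, from 6955756 to 6968523, had scores of 1.31 to 2.19. In all 3 of these chains of 4, the same 4 regions were present and separate in both replicates.

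**Figure D2:**
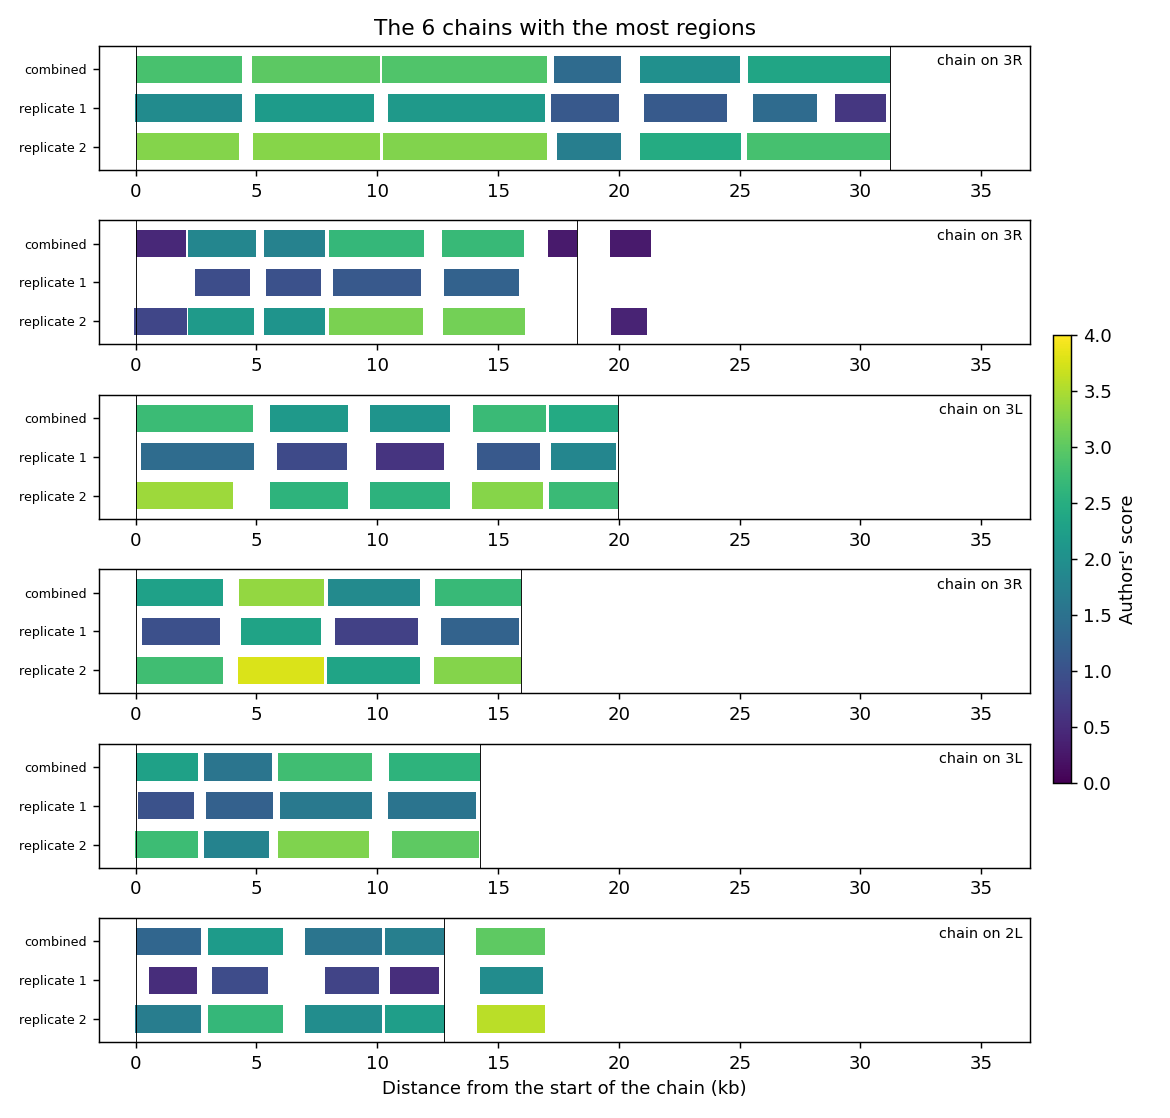
Maps of the 6 chains with the most regions, by distance from the start of the chain (kb), with the regions of the combined list and of each replicate coloured by the authors' score; black lines mark the ends of the chain, and regions up to 1.5 kb beyond them are drawn. The breaks recur in the replicates, except at the weak ends of the second chain, and scores of replicate 1 are lower throughout.

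Chained regions were about as wide as unchained ones but tended to have higher scores. The median width was 2630 bases (quartiles 2132.5 and 3435) against 2603 bases. The median combined score was 1.60 (quartiles 0.44 and 2.39) against 1.16, a difference of 0.44. The lower ends were alike: 26.3% of chained and 27.8% of unchained regions scored under 0.5, where 22.5% of all combined regions did. The sets came apart in the upper part, where 344 of the 659 chained regions (52.2%) and 40.8% of the unchained regions reached the median of the combined list (1.55), against 50% of all combined regions by definition. Chained regions that a replicate met had a median score of 0.93 in replicate 1 against 0.81 for unchained regions, and of 2.38 against 1.80 in replicate 2. Score rose with width across regions, with a rho (Spearman) of 0.77 in the chained and 0.76 in the unchained set. Regions share their libraries and these correlations are descriptions.

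**Figure D3:**
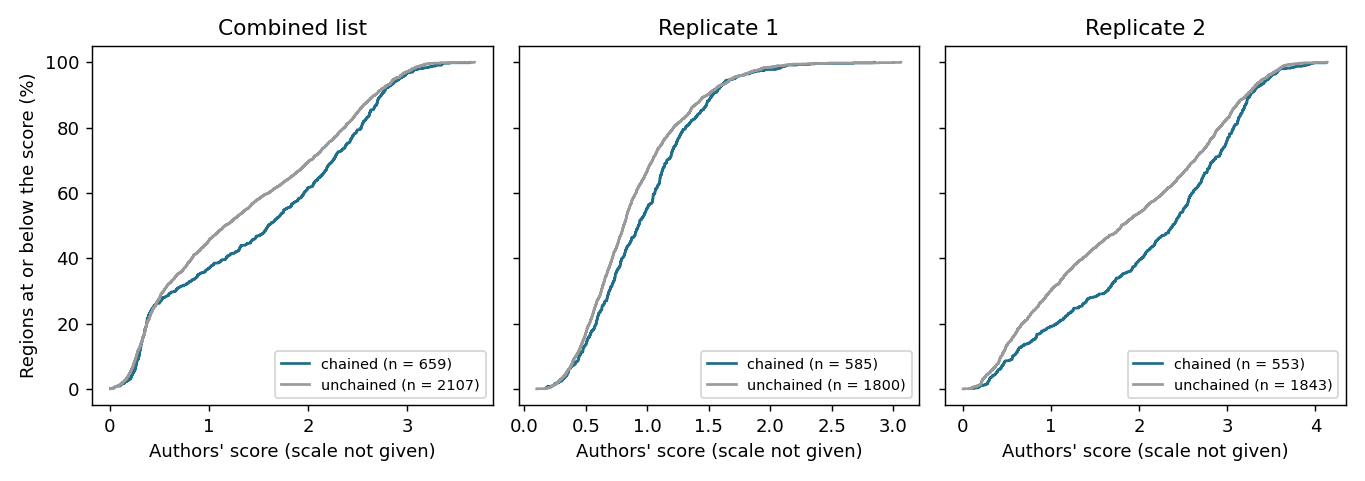
Cumulative share of regions under 5000 bases (%) by the authors' score in the combined list, replicate 1 and replicate 2, for chained (blue) and unchained (grey) regions on the same stretches; the replicates' panels hold only the regions they met. The curves coincide at low combined scores and part above about 0.5, with medians of 1.60 and 1.16.

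Regions with a chained neighbour on each side had a higher median score than those with 1, a comparison that mixes position with chain size. The 596 regions with 1 chained neighbour had a median score of 1.58 and the 63 with a chained neighbour on each side 1.84. The 596 include all 491 chained regions of pairs, whose median score was 1.52, against 1.84 for the 134 in chains of 3. The lower quartiles were 0.42 and 1.06, and 51.0% and 63.5% of the regions reached the combined median score. Those with a neighbour on each side were also wider, at a median of 2988 against 2598 bases. In the 54 chains of 3 regions the middle region had the highest score in 19, the lowest in 17 and a value in between in 18. The median was 1.97 for the middle region and 1.91 for the mean of the ends, so position made little difference there. The 112 chained regions that shared a chain with a broad region had a median score of 1.86, and the 547 others 1.56. The score also varied little with the gap, with medians of 1.52, 1.69, 1.63 and 1.63 in regions whose nearest gap was under 250, 250 to 499, 500 to 749 and 750 to 999 bases.

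The highest scores lay on 3R and 3L, and all 6 of the strongest chained regions were met by both replicates. The highest was on 3R from 25572626 to 25576728, with a combined score of 3.64, 2.13 in replicate 1 and 4.13 in replicate 2. The second was on 3R from 17092926 to 17097563 (3.43, with 2.36 and 3.84 in the replicates), and the third lay in the chain of 4 described above. The next 3 were all on 3L: from 1863360 to 1867636 (3.35), from 14782040 to 14785232 (3.35) and from 197709 to 202204 (3.34). They scored 1.95, 1.64 and 1.77 in replicate 1 and 3.93, 3.98 and 3.91 in replicate 2. The 4 lowest scores lay between 0.01 and 0.05, and each of these regions was met by replicate 2 only. The lowest was on 3R from 6713868 to 6715472.

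Neighbours across a gap had scores that were only loosely alike. Over the 418 gaps, the stronger side had a median score of 2.30 and the weaker side 1.30. The median difference between the sides was 0.60 (quartiles 0.23 and 1.23), and Spearman's rho between the left and right scores was 0.30. Over 537 gaps of 1000 to 2999 bases on the same stretches the median difference was 0.75 and rho was 0.20, and over all 2717 gaps of at least 1000 bases they were 0.83 and 0.12. Both sides reached the median of the combined list at 183 of the 418 gaps (43.8%), 1 side did at 126 (30.1%) and neither did at 109 (26.1%). At gaps of 1000 to 2999 bases these shares were 36.5%, 43.0% and 20.5%. The difference between the sides did not follow the length of the gap within the chains (rho of 0.01).

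Among the 281 pairs the median difference was 0.65. The greatest, 2.77, was on 3R, where a region from 18244932 to 18248954 scored 3.06 and its neighbour 158 bases away, from 18249113 to 18250951, scored 0.29. Replicate 1 gave 2.13 and 0.48 for them, and replicate 2 gave 3.43 and 0.44, so the order was the same in both. The next on 3R was a region from 7232721 to 7237250 (2.67) followed after 531 bases by one that scored 0.04. Replicate 1 met only the first of these, with 1.25, while replicate 2 met both, with 3.19 and 0.17. The next 3 differences were 2.61 on 3R, 2.57 on 3L and 2.55 on 3R, and the weak side was missed by replicate 1 at the first 2 of these and by replicate 2 at the last. At the last, from 27037685 to 27052094, 1 region of replicate 1 covered both sides. The pair most alike was on 3R from 20041139 to 20049269, with scores of 2.28 on each side. There replicate 1 gave 1.60 and 0.74 and replicate 2 gave 2.55 and 2.82, so the replicates ranked its regions in opposite order.

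The pair with the highest mean score, 3.16, was on 3L from 1860076 to 1867636. Its regions scored 2.96 and 3.35 and were 160 bases apart, with 1.18 and 1.95 in replicate 1 and 3.50 and 3.93 in replicate 2. The highest mean on 3R, 2.96, belonged to a chain from 25623847 to 25634561, made of 1 broad region (2.64) and 1 region of 3790 bases (3.29). On 2L it was 2.95, for a pair from 9961785 to 9969378 with scores of 2.61 and 3.28. No gap of these 3 chains was joined in either replicate.

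**Figure D4:**
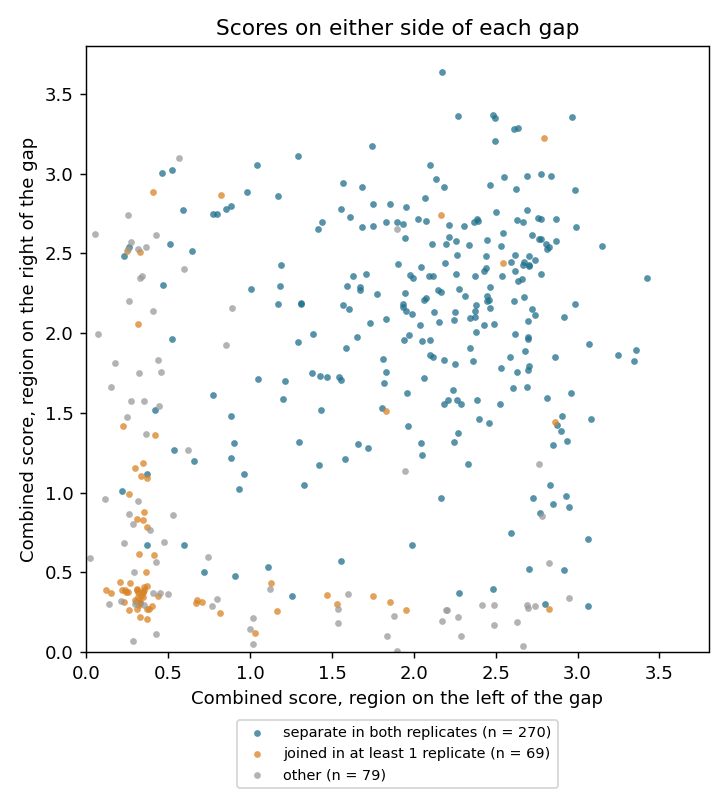
Combined score of the region to the left (x axis) and to the right (y axis) of each of the 418 gaps; blue, both sides met by separate regions in both replicates (270 gaps); orange, joined by 1 region in at least 1 replicate (69); grey, other (79). Separate gaps fill the upper right, and joined gaps gather where both scores are low.

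Support by the replicates was about as frequent for chained as for unchained regions. Both replicates met 490 of the 659 chained regions (74.4%, Wilson 95% interval 70.9% to 77.5%), against 77.7% of all combined regions and 74.7% of unchained regions. Replicate 1 alone met 95 (14.4%, 11.9% to 17.3%), replicate 2 alone met 63 (9.56%, 7.54% to 12.0%) and neither met 11 (1.67%). In unchained regions the same shares were 10.8%, 12.8% and 1.76%. In total, replicate 1 met 88.8% of chained regions, against 87.2% of all combined regions, and replicate 2 met 83.9%, against 88.8%. All combined regions include broad ones. Of the unchained regions, which are also under 5000 bases, replicate 1 met 85.4% and replicate 2 met 87.5%. Intervals cover counting error only, and neighbouring regions are not independent. When the list of replicate 1 was cut to its 4959 highest scores, the number in replicate 2, both met 56.0% of chained regions. This share was not computed for unchained or all combined regions, so the fall cannot be called particular to chained regions.

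Regions met by both replicates were the strong and wide ones. Their median combined score was 2.05, and their median width was 2931 bases. Regions found by replicate 1 alone had a median score of 0.32 at a median width of 1427 bases. For replicate 2 alone these medians were 0.35 and 1964 bases. For the regions that neither replicate met they were 0.30 and 1243 bases. The narrowest region of the combined list was 1001 bases wide, but it was 1301 bases in replicate 1 and 1302 in replicate 2. The upper quartile of width was 1289 bases in regions met by neither. The lower quartile was 1206.5 bases in those met by replicate 1 only. How far this difference in smallest width accounts for missing support was not tested. All 11 regions met by neither scored under 0.5, as did 91 of the 95 met by replicate 1 only. Only 26 of the 490 met by both did. Over these 490 regions the replicates' scores had a Spearman rho of 0.76 across regions, and 462 (94.3%) scored lower in replicate 1, by a median difference of -1.51 (replicate 1 minus replicate 2). In the 1573 unchained regions met by both, rho was 0.70 and the difference -1.24.

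The breaks between chained regions were mostly breaks in each replicate too. Replicate 1 met both sides with separate regions at 288 of the 418 gaps (68.9%, Wilson 95% interval 64.3% to 73.1%), where it did so at 70.3% of all combined gaps under 1000 bases. Replicate 2 did at 324 (77.5%, 73.3% to 81.2%), against 77.5% of all such gaps. At 270 gaps (64.6%, 59.9% to 69.0%) the sides were separate in both replicates, against 64.4% of all such gaps. All such gaps number 724 and include the 418, which draws these shares together. At 537 gaps of 1000 to 2999 bases on the same stretches, the sides were separate at 79.0% in replicate 1, 83.2% in replicate 2 and 70.6% in both. A single region met both sides by at least 1 base, which is called joined here, at 59 gaps in replicate 1 (14.1%, 11.1% to 17.8%, against 13.1%) and at 12 gaps in replicate 2 (2.87%, 1.65% to 4.95%, against 3.04%). At the gaps of 1000 to 2999 bases, 5.40% were joined in replicate 1 and 0% in replicate 2. Within the chains, some joined gaps were only edge overlaps between regions that were otherwise separate. The same region had the largest overlap with both sides at 55 of the 59 gaps in replicate 1 and at 8 of the 12 in replicate 2. With an overlap of at least 50% of both sides required, 12.4% of gaps were joined in replicate 1 and 1.91% in replicate 2. By 1 base, 2 gaps were joined in both replicates, and at 0 of these did 1 region of replicate 2 have the largest overlap with both sides. At the remaining gaps a replicate met only 1 side (62 in replicate 1 and 50 in replicate 2) or neither (9 and 32).

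Gap length separated the joined gaps in replicate 2 more than in replicate 1. All 12 joined gaps of replicate 2 were under 250 bases, where they made up 10.9% of gaps. Replicate 1 joined 20.9% of gaps under 250 bases, 13.3% of those of 250 to 499, 9.71% of those of 500 to 749 and 12.0% of those of 750 to 999. The only chain with every gap joined in both replicates, by 1 base, was a pair on 2L from 16934 to 22875, with 10 bases between its regions. They had combined scores of 1.83 and 1.51, and replicate 1 covered both with 1 region of 6068 bases that scored 1.12. Replicate 2 had a region for each, of 2565 and 3104 bases, and the edge of one reached past the gap.

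**Figure D5:**
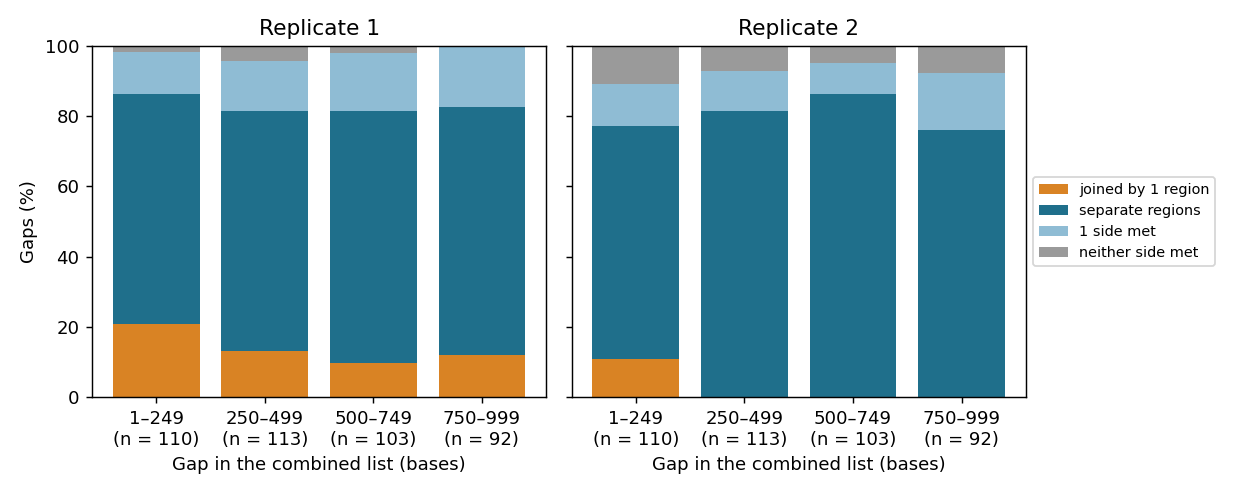
Share of gaps (%) by gap length in the combined list for each replicate: joined by 1 region (orange), both sides met by separate regions (blue), 1 side met (light blue) or neither side met (grey). Separate regions make up most of every bar, and joined gaps of replicate 2 appear only under 250 bases.

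Where both replicates had a break, it lay at nearly the same place, which the choice of gaps partly sets. In each replicate, separate regions had to meet the same 2 combined regions, less than 1000 bases apart. At the 270 gaps separate in both, the midpoints of the replicates' own gaps were a median of 79 bases apart (quartiles 36 and 143.75), and 258 pairs of midpoints (95.6%) were within 500 bases. The replicates' own gaps were of unequal length, at a median of 870 bases for replicate 1, 524.5 for replicate 2 and 496 for the combined list. The gap was longer in replicate 1 at 244 of these 270 places (90.4%). The lengths had a Spearman rho of 0.62 across gaps. At 377 breaks of 1000 to 2999 bases that both replicates had, the midpoints were a median of 105.5 bases apart, and 88.9% were within 500 bases. Taking all gaps separate in a replicate, its own gap was also under 1000 bases at 314 of 324 in replicate 2 (96.9%) and at 179 of 288 in replicate 1 (62.2%).

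The replicates mostly ranked the 2 sides of a gap alike. At 207 of the 270 gaps separate in both (76.7%) the same side had the higher score in both, against 76.2% of all combined gaps under 1000 bases that were separate in both. Where 1 side reached the combined median score and the other did not, this held at 67 of 70 gaps (95.7%). Where both sides reached it, the share was 132 of 179 (73.7%), and where neither did, 8 of 21 (38.1%). These classes were cut on the combined score, which comes from the same samples. The median combined difference between the sides was 1.77, 0.35 and 0.28 over all chained gaps of these classes. Their order in agreement is therefore partly set by how the classes were chosen. At gaps of 1000 to 2999 bases the share over all was 77.6%.

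The gaps that replicate 1 joined lay mostly between weak regions. Of its 59 joined gaps, 51 had both sides below the combined median score, which is 46.8% of the 109 gaps of that kind. It joined 8 of the 126 gaps with 1 side below and 0 of the 183 gaps with both sides at or above it, where a count of 0 allows a share of up to 1.64% (3 counts of 183; the upper Wilson limit is 2.06%). At those 183 gaps the sides were separate in replicate 1 at 182, in replicate 2 at 180 and in both at 179. Without the combined regions in the lowest 25% of scores, replicate 1 joined 0.38% of gaps.

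Most chained regions met by replicate 1 only were met by broad regions of that replicate. The region of replicate 1 that met them had a median width of 8362 bases, against 2549 bases for chained regions met by both and 4077 bases for unchained regions met by replicate 1 only. It was at least 5000 bases wide for 72 of the 95 (75.8%, against 42.7% of the unchained regions met by replicate 1 only) and covered 88 of them completely. These regions of replicate 1 had a median score there of 0.99, against 0.91 for chained regions met by both. The 95 lay in 62 regions of replicate 1, and 61 of them shared theirs with another. Of the 227 unchained regions met by replicate 1 only, 32 did. This contrast is partly set by the rule, which gives every chained region a close neighbour and leaves unchained regions without one. The median nearest gap was 446 bases in chained and 4758 bases in unchained regions. The medians and the shares of broad regions above are taken per combined region. A shared region of replicate 1 therefore counts more than once in them, and more often so in the chained set. How far this accounts for the difference in width was not tested. Counting all chained regions, 8 regions of replicate 1 met at least 3, of which 4 met none that replicate 2 also met and 2 were under 5000 bases wide. The 4 without support from replicate 2 are named here, chosen after their values were seen. On 3R, a region of replicate 1 from 8062815 to 8096040 (33226 bases, score 1.05) held 4 chained regions with combined scores of 0.32 to 0.35. Another on 3R from 25098228 to 25138911 (40684 bases, score 1.24) held 3 with scores of 0.31 to 0.39. A further one on 2L from 1063814 to 1072806 (8993 bases, score 1.10) held 3 with scores of 0.29 to 0.40. The last, on 3R from 7187410 to 7197436 (10027 bases, score 1.20), held 3 with scores of 0.27 to 0.32.

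The strongest chained regions met by a single replicate were of unlike strength. For replicate 2 only, the highest combined score was 1.90, on 3L from 15150307 to 15153701, with 2.41 in replicate 2. Then came a region on 3R from 2979566 to 2981791 (1.18), one on 2L from 16679146 to 16681405 (1.13) and one on 3L from 12391080 to 12393309 (1.12). They scored 1.64, 1.65 and 1.53 in replicate 2. For replicate 1 only, the highest combined score was 0.82, on 2L from 15728752 to 15732587, within a region of 10871 bases in replicate 1 that scored 1.13. The next 3 scored 0.78, 0.70 and 0.68 in the combined list and lay in regions of 7289, 7188 and 33690 bases in replicate 1. For regions met by neither, the highest combined score was 0.37, on 3R from 6052206 to 6053582, a region of 1377 bases.

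Chaining was present on all 3 arms, with the highest rate on 3R. Of the regions under 5000 bases, 182 of 802 were chained on 2L (22.7%, Wilson 95% interval 19.9% to 25.7%), 197 of 904 on 3L (21.8%, 19.2% to 24.6%) and 280 of 1060 on 3R (26.4%, 23.8% to 29.2%). Over the 3 stretches this was 659 of 2766 (23.8%), and of all combined regions whatever their width 24.2% had a neighbour less than 1000 bases away. The intervals of the 3 arms overlap, which does not show that the rates are equal. They cover counting error only, and regions of the same chain are not independent. Density was 8.66, 8.74 and 10.8 chained regions per Mb on 2L, 3L and 3R. Full bins of 1 Mb held 3 to 20 on 2L, 0 to 18 on 3L and 2 to 20 on 3R, with the highest counts between 6000001 and 7000000 on 2L, in the first Mb of 3L and between 7000001 and 8000000 on 3R. The last of these bins holds the chain of 31222 bases. Median scores were alike on the arms, at 1.57, 1.63 and 1.60. The share met by replicate 1 only was 18.9% on 3R, 13.2% on 2L and 9.14% on 3L, and in unchained regions it had the same order, at 12.9%, 10.8% and 8.35%.

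The rule gave unequal numbers when it was applied to each replicate's own list. Replicate 1 had 1868 chained regions in 872 chains and replicate 2 had 526 in 277 chains, a mean of 1197 ± 949 regions (SD, n = 2). Chained regions made up 37.8% of the regions under 5000 bases in replicate 1 and 21.4% in replicate 2. The median gaps were 426 and 503.5 bases, with a mean of 464.75 ± 54.8 bases (SD, n = 2). The limit of 1000 bases bounds both, so their closeness is partly set by the rule. In the combined list the median followed the limit, at 253 bases with a maximum gap of 500 and 822 bases with 2000. Of the 553 chained regions of the combined list that replicate 2 met, 90.6% were met by a region that was itself less than 1000 bases from its neighbour in that replicate. In replicate 1 this was 60.3% of 585. For unchained regions the shares were 0.43% and 18.5%.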

How the data were processed

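Enriched regions were read from 3 lists on FlyBase release 5, per the file headers. Per the submitters' processing notes, Bowtie 0.12.7 was among the tools. Which program called the regions, with which thresholds, on what score scale, and how the replicate lists became 1 combined list are points not given in the sources used here. The authors deposited 1 score per region, used here as deposited. Rows typed as depletion were set aside. Gaps were counted as next start minus previous end minus 1. Regions of 2 lists met when they shared at least 1 base, and the replicate region with the largest overlap gave its score. A gap was joined in a replicate when 1 region there met both sides. The labels' replicate numbers gave the samples. No test was made. Shares carry 95% Wilson intervals. The code was tested on simulated lists with planted chains. Members, lists and alternatives were chosen with earlier results of these data known. Named regions were the extremes of chain size, score, gap, width, score difference and support by fixed rule; the broad regions of replicate 1 were named after their values were seen. Software was SciPy 1.17.1, pandas 2.3.3, NumPy 2.4.6 and Matplotlib 3.10.9 under Python 3.11.15.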

Additional observations from a re-analysis of the deposited data

How the results depend on the processing

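Of 71 values recomputed for 10 results, 49 stayed within 1.5 times (counts), the SD between the replicates' own lists (medians and the chained share) or the Wilson interval (shares) and 22 moved further. None of these results can change sign. The SD between the replicates' lists is a wide limit: within it, the median score was 0.58 in the list of replicate 1 and 2.42 in that of replicate 2, and the chained share was 13.1% at a maximum gap of 500 bases. With a maximum gap of 500 bases there were 363 chained regions in 195 chains, the median gap was 253 bases and replicate 2 joined 5.38% of gaps; with 2000 bases there were 1055 chained regions, 38.1% of those under the width limit, and the median gap was 822 bases. Without the lowest 25% of scores there were 395 chained regions in 211 chains, the median width was 3047 bases, both replicates met 97.5% and replicate 1 joined 0.38% of gaps. The 6 arms in full gave 1161 chained regions in 607 chains. In the list of replicate 1 the rule gave 1868 in 872 chains, 37.8% of regions under 5000 bases, with a median difference within pairs of 0.19. With no width limit, both replicates met 77.7%. With replicate 1 cut to the length of replicate 2, which was chosen after seeing the data, they met 56.0%, with no share for other regions beside it. Requiring 1 replicate only gave 83.9% to 88.8%. No paired analysis was possible because no list of an Input sample was analysed here and no result comes from a test. Genes at the regions were not analysed here, since no annotation on release 5 was used. Unknown depth limits any statement on regions that a replicate did not meet.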

Other observations

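Of the 10 regions typed as depleted in the combined list, 8 lay on the same stretches of 2L, 3L and 3R, and 0 lay less than 1000 bases from a chained region. Chained regions covered 1816137 bases of the 69.5 Mb of these stretches. No such count was made for unchained regions, so the count of 0 shows no trait of chained regions.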
